A study of Mus musculus with 15 samples.

Results

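The 10 genes described here carry out the urea cycle and supply it with ammonia: Nags, Cps1, Otc, Slc25a15, Slc25a13, Ass1, Asl, Arg1, Gls2 and Glud1. They were chosen by gene symbol from the 19464 gene rows measured in mouse liver by RNA sequencing, with the row of most reads kept for each symbol. All 10 had enough reads to be tested in every comparison.

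The urea cycle turns ammonia, which is toxic to the brain, into urea, and in mammals the complete cycle runs in hepatocytes. Carbamoyl phosphate is made from ammonia in the mitochondrion by Cps1, which needs the activator made by Nags, and Otc joins it to ornithine. Citrulline then leaves for the cytosol, where Ass1 and Asl build arginine with nitrogen from aspartate, and Arg1 splits arginine into urea and ornithine. Slc25a15 brings ornithine back into the mitochondrion and Slc25a13 exports the aspartate that Ass1 uses. Gls2, the liver form of glutaminase, and Glud1, glutamate dehydrogenase, release ammonia inside the mitochondrion. Most of this machinery lies in hepatocytes around the portal vein, whereas those next to the central vein hold Glul, glutamine synthetase, which fixes the ammonia that is left.

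Livers came from Stab1-/- mice, which lack Clever-1 (stabilin-1, a scavenger receptor of macrophages and some endothelial cells) from all cells, and from wildtype mice. There were 4 libraries from 2-weeks-old Stab1-/- mice, 4 from 2-weeks-old wildtype mice, 3 from Stab1-/- fetuses at E17.5 and 4 from wildtype fetuses at E17.5, and the labels give the strain background C57BL/6N;129SvJ to both genotypes. The wildtype animals were age-matched, and the sources used here do not say that they were littermates. The study's methods count the libraries of each group as mice, and the labels add nothing on this. Each library held about 9659000 to 10964000 unique reads on genes, and no 2 libraries of a group were near enough in their counts to be 1 library sequenced again.

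Stab1 itself was measured at 0.862 to 1.54 RPKM (reads scaled to the length of the gene and the total of the library) in the 2-weeks-old Stab1-/- libraries against 7.30 to 11.0 in wildtype, and at 3.60 to 5.23 against 14.9 to 21.8 at E17.5. Its log2 fold change was -3.19 at 2 weeks (edgeR quasi-likelihood test, Benjamini-Hochberg adjusted p = 5.15e-06) and -1.91 at E17.5 (adjusted p = 0.00101), so every library matched its genotype label. All 8 hepatocyte markers examined, among them Alb and Ttr, were read in every library. Stab1-/- E17.5 replicate 1 stood apart in intestinal genes. It held 28.9 RPKM of Vil1 and 8.18 of Lct, where the other fetal libraries held at most 2.845 and 0.227. The kidney markers Umod, Slc12a1, Aqp2 and Nphs1 did not pass edgeR's filter on low counts in any comparison. Cps1 and Otc are also made in the intestine, and no member was called by edgeR between genotypes at E17.5 with or without that library.

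The members spanned a wide range of levels. In wildtype livers at 2 weeks Arg1 was the most abundant at 777 ± 120 RPKM (SD, n = 4), followed by Glud1 at 704 ± 57.2 and Cps1 at 664 ± 118, and the ranges of neighbours in this order overlapped. Otc at 350.5 ± 82.0 and Ass1 at 336 ± 32.0 also overlapped. Asl, Gls2, Slc25a15, Slc25a13 and Nags followed in that order without overlap between neighbours, Nags being the lowest at 33.7 ± 1.94 RPKM. The order differed before birth. At E17.5 Glud1 led in wildtype livers with 480.5 ± 19.6 RPKM, above the range of every other member, and Slc25a13 stood at the sixth place, its range overlapping that of Otc. In sum the 10 genes took 0.358 to 0.408% of gene reads in wildtype fetuses and 0.847 to 0.991% at 2 weeks. The same shares in Stab1-/- livers were 0.376 to 0.418% and 0.839 to 0.971%.

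**Figure D1:**
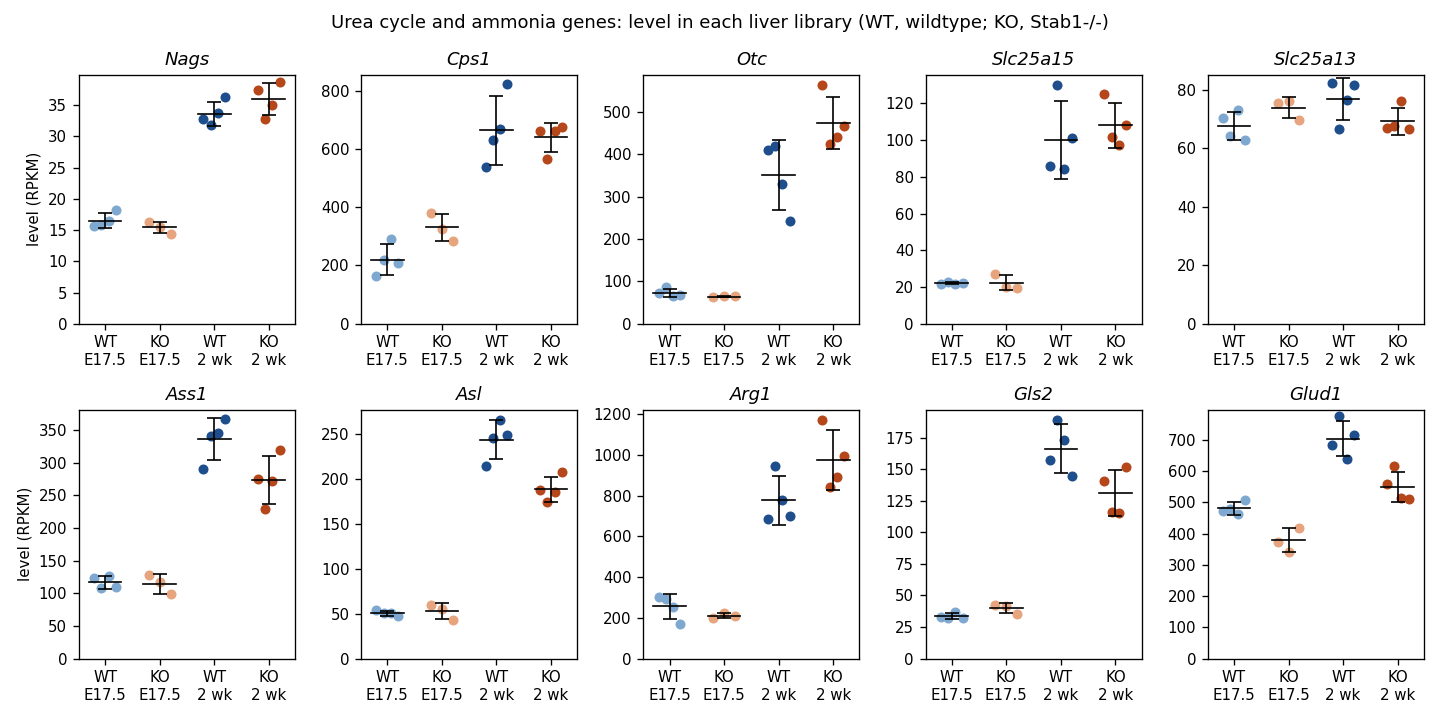
Level of each member in RPKM (vertical axes, each from 0) in every library, with 1 point for each library, a line at the group mean and bars of 1 SD, for wildtype (WT) and Stab1-/- (KO) livers at E17.5 and 2 weeks. In 9 of the 10 panels the 2-week points lie above all fetal points of the same genotype, and Slc25a13 is the panel in which they overlap. The share of all genes without such overlap was not counted. By edgeR, 71.9% of all tested genes in wildtype and 72.5% in Stab1-/- livers differed between stages at an adjusted p under 0.05.

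On the GRCm38 assembly with GENCODE M21, all 10 are protein-coding genes, spread over 9 chromosomes. Cps1 lies on chromosome 1 (67123026 to 67231259), Otc on chromosome X (10252305 to 10321024), Nags on chromosome 11 (102145513 to 102149477), Slc25a15 on chromosome 8 (22375551 to 22398597) and Slc25a13 on chromosome 6 (6041218 to 6217173). Ass1 lies on chromosome 2 (31470207 to 31520672) and Asl on chromosome 5 (130011258 to 130029247). Arg1 and Gls2 share chromosome 10 (24915221 to 24927484 and 128194457 to 128210004), and Glud1 lies on chromosome 14 (34310727 to 34345265). The build that the reads were mapped to is not given in the sources used here, and expression values were joined to these positions by gene ID.

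Reads of Ass1 came from only part of the gene. They covered 47.95 to 50.9% of its gene model in the 15 libraries, against 92.6 to 99.98% for the other 9 members. A processed pseudogene, Gm5424, on chromosome 10 (GRCm38, 62071123 to 62072362) shares 55.3% of the 50-base windows of the Ass1 transcript without a mismatch, and the counts are of unique reads. Gm5424 itself held 0 to 10 reads. How much of the Ass1 level is lost to reads shared with the pseudogene was not tested.

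Between E17.5 and 2 weeks most urea cycle genes rose. In wildtype livers all 10 members passed the test, each higher at 2 weeks, where 34.9% of the 13369 tested genes were called higher and 37.0% lower. In Stab1-/- livers 9 of 10 were higher, against 35.7% higher and 36.8% lower of 13433 genes. The median log2 fold change of the members was 1.96 in wildtype and 1.71 in Stab1-/- livers, and that of all tested genes was -0.015 and -0.014. A gene counts as called here when its Benjamini-Hochberg adjusted p over all tested genes is under 0.05 in edgeR's quasi-likelihood test.

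Gls2, Asl, Otc and Slc25a15 rose most in wildtype livers. Gls2, which frees ammonia from glutamine, was at 33.2, 31.8, 36.9 and 32.5 RPKM in the 4 wildtype fetal libraries and at 158, 189.5, 173.5 and 144.5 in the 4 wildtype libraries at 2 weeks. The log2 fold change was 2.67 ± 0.11 (SE) in wildtype (edgeR adjusted p = 1.07e-09) and 1.94 ± 0.15 in Stab1-/- livers (adjusted p = 4.46e-07). Every 2-week library lay above every fetal one in both genotypes. Asl, the lyase that releases arginine, went from 53.8, 50.5, 51.0 and 46.9 RPKM to 214, 246, 266 and 249 in wildtype, a log2 fold change of 2.63 ± 0.12 (edgeR adjusted p = 1.34e-09). In Stab1-/- livers it went from 59.7, 55.5 and 43.2 to 187, 174, 186 and 208, with a log2 fold change of 2.06 ± 0.14 (adjusted p = 1.63e-07). The groups did not overlap in either genotype.

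At the mitochondrial entry, Otc was at 71.6, 85.9, 65.6 and 67.55 RPKM in wildtype fetuses and at 410, 419, 331 and 243 at 2 weeks. Its log2 fold change was 2.62 ± 0.16 in wildtype (edgeR adjusted p = 2.26e-08) and 3.10 ± 0.13 in Stab1-/- livers (adjusted p = 7.12e-09), the most of any member there. Wildtype 2 weeks replicate 4 had the lowest Otc level and the highest Cps1 level of its group. Cps1, the enzyme that commits ammonia to the cycle, was at 165, 217, 291 and 207 RPKM in wildtype fetuses and 538, 631, 667 and 821 at 2 weeks, a log2 fold change of 1.96 ± 0.19 (edgeR adjusted p = 1.55e-06). In Stab1-/- livers it went from 379, 326.5 and 285.5 to 662, 567, 660 and 674, a log2 fold change of 1.18 ± 0.14 (adjusted p = 1.47e-05). Without the fetal library that held intestinal genes, the Cps1 change in Stab1-/- livers was 1.25 (edgeR adjusted p = 2.82e-05). Nags, which makes the activator of Cps1, rose by a log2 fold change of 1.39 ± 0.098 in wildtype and 1.45 ± 0.11 in Stab1-/- livers (edgeR adjusted p = 8.32e-08 and 3.62e-07).

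The proportion of the entry enzymes was followed as a ratio. That of Otc to Cps1, taken from RPKM levels, lay between 0.226 and 0.435 in wildtype fetuses and between 0.296 and 0.762 at 2 weeks, with overlapping ranges. The ratio in Stab1-/- livers lay between 0.166 and 0.225 before birth and between 0.668 and 0.850 at 2 weeks, so that the 2 groups were well apart.

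Both mitochondrial carriers serve the cycle, but they behaved differently. Slc25a15, the ornithine carrier, was at 21.5, 22.5, 21.8 and 22.4 RPKM in wildtype fetuses and 85.9, 130.0, 84.0 and 101 at 2 weeks. The log2 fold change was 2.55 ± 0.14 in wildtype and 2.50 ± 0.13 in Stab1-/- livers (edgeR adjusted p = 7.95e-09 and 3.25e-08). Slc25a13, the aspartate and glutamate carrier, was at 70.3, 64.2, 72.9 and 62.6 RPKM in wildtype fetuses and 82.2, 66.65, 76.6 and 81.65 at 2 weeks, and these ranges overlapped. Its log2 fold change was 0.55 ± 0.11 in wildtype (edgeR adjusted p = 0.000666). In Stab1-/- livers it was 0.13 ± 0.096 (95% interval -0.085 to 0.34, adjusted p = 0.252). The direction of Slc25a13 was not stable. In Stab1-/- livers its mean RPKM was 73.8 at E17.5 and 69.2 at 2 weeks, with overlapping ranges. Scaled on library totals, the wildtype log2 fold change was 0.18 (adjusted p = 0.117), and scaled on 8 hepatocyte markers it was -0.50 (adjusted p = 0.000756).

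**Figure D2:**
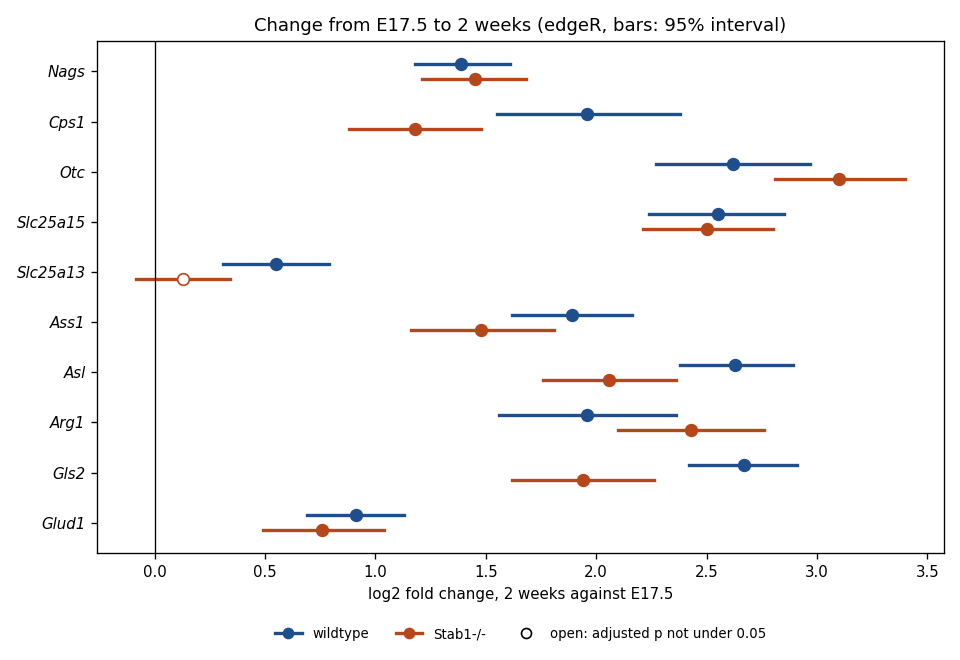
Log2 fold change from E17.5 to 2 weeks (horizontal axis) for each member in wildtype and Stab1-/- livers, from edgeR, with bars of the 95% interval and filled points where the adjusted p was under 0.05. With libraries scaled by edgeR's TMM factors, the 2 genotypes point the same way for all 10 members. Slc25a13 in Stab1-/- livers is the open point, its interval reaching from -0.085 to 0.34.

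Among the cytosolic enzymes besides Asl, Arg1, which releases urea, was at 303.5, 293, 255 and 172 RPKM in wildtype fetuses and 685.5, 946, 777 and 699.5 at 2 weeks. Its log2 fold change was 1.96 ± 0.18 in wildtype and 2.43 ± 0.15 in Stab1-/- livers (edgeR adjusted p = 1.01e-06 and 9.02e-08). Ass1, which joins citrulline to aspartate, rose by 1.89 ± 0.12 in wildtype and 1.48 ± 0.15 in Stab1-/- livers (edgeR adjusted p = 3.91e-08 and 4.06e-06). Arg2, the mitochondrial arginase of tissues outside the liver, held 0 to 9 reads in any library and at most 0.608 RPKM, and did not pass edgeR's filter on low counts. DESeq2, which tested it, called Arg2 lower at 2 weeks in wildtype livers (log2 fold change -2.14, adjusted p = 0.0483). Its ranges overlapped, at 0 to 0.270 RPKM at 2 weeks and 0.198 to 0.608 in wildtype fetuses. Limma on log2(RPKM + 0.1) gave -1.80 (adjusted p = 0.00624). Arg2 passed limma's filter, 0.5 RPKM in 3 libraries, only through those fetal libraries, so this value adds no support.

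Glud1 was already abundant before birth and rose least of the members called in both genotypes. It was at 472.5, 478, 463 and 508 RPKM in wildtype fetuses and 685, 775, 639 and 717 at 2 weeks. The log2 fold change was 0.91 ± 0.10 in wildtype and 0.76 ± 0.12 in Stab1-/- livers (edgeR adjusted p = 4.8e-06 and 0.000217). Scaled on 8 hepatocyte markers it was -0.13 in wildtype (adjusted p = 0.335) and -0.005 in Stab1-/- livers (adjusted p = 0.974).

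The size of the stage change depended on how libraries were scaled, and markers of blood-forming cells moved over the same interval. All 10 erythroid markers, such as Hemgn and Slc4a1, were lower at 2 weeks with a median log2 fold change of -8.21 in wildtype livers. Their summed level was 2579 to 3187 RPKM in wildtype fetuses and 71.9 to 133 at 2 weeks. All 8 granulocyte markers were also lower, with a median of -5.89, while 6 of 8 hepatocyte markers were higher and none lower, with a median of 1.20. Fewer cells of a type and less RNA per cell cannot be told apart in whole tissue. Scaling on the 8 hepatocyte markers moved the median of all genes to -1.06 in wildtype and -0.77 in Stab1-/- livers, and scaling on library totals to -0.38 and -0.24. On the hepatocyte scale Cps1 was still higher by 0.91, Otc by 1.60, Asl by 1.59, Gls2 by 1.63, Arg1 by 0.94 and Nags by 0.34 in wildtype livers (edgeR adjusted p = 8.59e-05, 1.47e-06, 1.06e-08, 3.41e-08, 0.000135 and 0.0191). The part that the change in cell types has in the remaining differences was not tested.

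**Figure D3:**
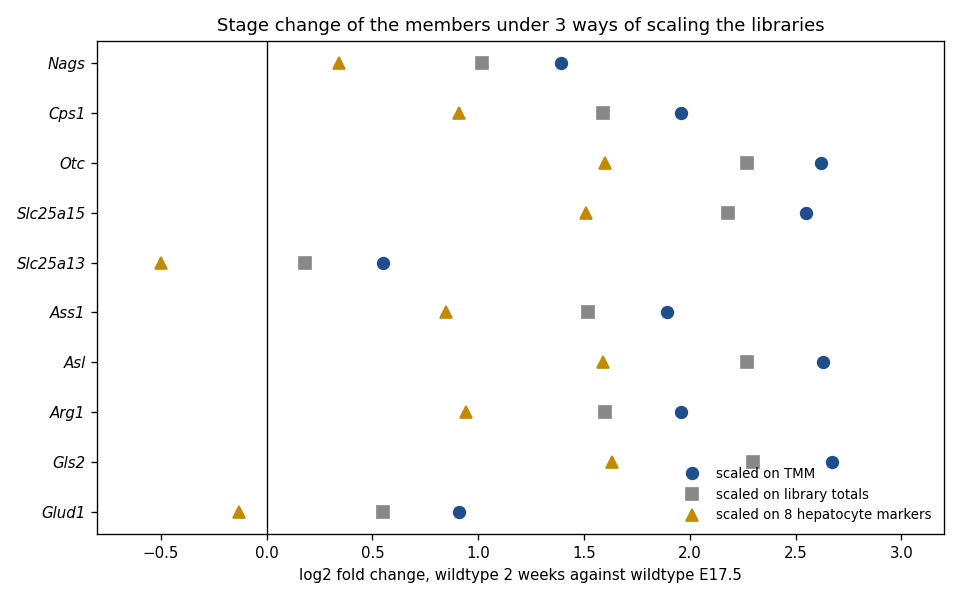
Log2 fold change of wildtype livers between E17.5 and 2 weeks (horizontal axis) for each member, with libraries scaled by edgeR's TMM factors, by library totals or by 8 hepatocyte markers. The points of a gene shift to the left together from TMM to totals to hepatocyte markers, and on the last scale Slc25a13 at -0.50 and Glud1 at -0.13 lie below 0 while the other 8 members stay above it.

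Other pathways of nitrogen metabolism gave a frame for this rise. All 21 tested enzymes of amino acid breakdown were higher at 2 weeks in both genotypes, with a median log2 fold change of 2.16 in wildtype and 1.88 in Stab1-/- livers. Tdo2 and Tat, which open the degradation of tryptophan and tyrosine, rose by 7.64 ± 0.35 and 6.84 ± 0.34 in wildtype, and Sds, serine dehydratase, by 5.10 ± 0.25 (edgeR adjusted p = 1.83e-09, 3.71e-09 and 3.39e-09). Of 17 tested genes that handle ammonia, glutamine and glutamate, 12 were higher and 3 lower in wildtype livers. Gpt, alanine aminotransferase, was higher by 5.38 ± 0.18 and the glutamate transporter Slc1a2 by 4.49 ± 0.26, while the glutamine transporter Slc1a5 was lower by a log2 fold change of -5.07 ± 0.17 (edgeR adjusted p = 1.51e-10, 1.32e-08 and 1.68e-10). Glul was higher by 1.88 ± 0.12 (adjusted p = 3.66e-08).

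Genes of arginine, ornithine and proline metabolism did not move as a block. In wildtype livers 6 of 15 tested were higher and 6 lower, with a median log2 fold change of -0.008. Prodh, proline dehydrogenase, was higher by 3.62 ± 0.19, whereas Slc7a1, an arginine transporter, and Odc1, which draws ornithine into polyamines, had log2 fold changes of -3.72 ± 0.19 and -2.95 ± 0.18 (edgeR adjusted p = 6.28e-09, 5.52e-09 and 2.74e-08). Of 12 regulators known to act on urea cycle genes, 11 were higher and 1, Creb1, lower. Creb3l3, a liver transcription factor, Gcgr, the glucagon receptor, and Sirt3, a mitochondrial deacylase, rose most, by 2.32 ± 0.10, 2.17 ± 0.11 and 2.02 ± 0.15 (edgeR adjusted p = 1.57e-09, 4.27e-09 and 1e-07). On the scale of the 8 hepatocyte markers these counts in wildtype livers became 19 higher and none lower for the breakdown enzymes, 9 and 6 for the ammonia genes, 5 and 9 for the arginine genes and 5 and 4 for the regulators. Among the ammonia genes in Stab1-/- livers 12 were higher and 5 lower, against 5 and 7 of the arginine genes and 10 and 1 of the regulators.

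Promoters of 4 members that rose in both genotypes are shown beside that of Slc25a13, which was not called in Stab1-/- livers, so that the sequences before their starts can be compared. RefSeq windows on GRCm38.p6 from 250 bases before to 50 bases after the start were at hand for 6 of the 10 members, and not for Cps1, Arg1, Asl and Gls2. They lie at chrX:10252055-10252354 (plus strand, Otc), chr8:22398572-22398871 (minus strand, Slc25a15, the start nearest the GENCODE gene start of 2 in RefSeq), chr2:31470020-31470319 (plus strand, Ass1), chr11:102145263-102145562 (plus strand, Nags) and chr6:6217124-6217423 (minus strand, Slc25a13). Each is written 5′ to 3′ on the gene's strand, and capitals mark the CCAAT motif, the only one found of the 5 motifs searched.
Otc: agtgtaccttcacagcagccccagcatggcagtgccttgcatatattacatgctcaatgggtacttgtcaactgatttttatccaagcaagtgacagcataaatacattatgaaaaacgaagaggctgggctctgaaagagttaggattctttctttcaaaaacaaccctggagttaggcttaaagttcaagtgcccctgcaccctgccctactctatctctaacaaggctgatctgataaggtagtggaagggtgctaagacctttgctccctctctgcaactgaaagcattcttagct
Slc25a15: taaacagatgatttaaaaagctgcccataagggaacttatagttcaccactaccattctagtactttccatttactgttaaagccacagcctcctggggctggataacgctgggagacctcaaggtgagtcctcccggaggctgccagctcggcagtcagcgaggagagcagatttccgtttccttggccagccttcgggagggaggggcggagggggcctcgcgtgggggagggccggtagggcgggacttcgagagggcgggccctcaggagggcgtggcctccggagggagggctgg
Ass1: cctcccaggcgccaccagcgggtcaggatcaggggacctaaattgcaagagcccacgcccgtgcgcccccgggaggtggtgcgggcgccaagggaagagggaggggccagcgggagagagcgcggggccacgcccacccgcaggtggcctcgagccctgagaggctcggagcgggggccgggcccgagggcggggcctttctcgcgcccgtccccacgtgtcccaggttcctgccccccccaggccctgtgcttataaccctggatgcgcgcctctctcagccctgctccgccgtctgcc
Nags: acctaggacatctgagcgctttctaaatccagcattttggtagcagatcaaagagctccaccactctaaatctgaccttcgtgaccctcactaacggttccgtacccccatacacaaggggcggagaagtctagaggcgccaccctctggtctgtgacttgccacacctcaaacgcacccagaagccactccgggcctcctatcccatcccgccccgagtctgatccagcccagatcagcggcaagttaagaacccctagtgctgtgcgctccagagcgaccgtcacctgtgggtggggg
Slc25a13: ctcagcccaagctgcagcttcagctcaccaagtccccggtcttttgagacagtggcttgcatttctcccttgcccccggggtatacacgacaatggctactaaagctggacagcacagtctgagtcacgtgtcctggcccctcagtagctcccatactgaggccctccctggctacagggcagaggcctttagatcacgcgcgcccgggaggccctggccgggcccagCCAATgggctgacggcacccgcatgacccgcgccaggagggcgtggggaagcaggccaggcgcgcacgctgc

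On both strands, TATAAA occurs in 13.6% of the 32851 promoter windows, CCAAT in 37.4%, CAAAGTCCA (HNF4A type) in 0.475%, TTGCGCAA (C/EBP type) in 0.183% and TGACGTCA (cAMP response element) in 1.79%. The 6 windows of members held 1 match in all, CCAAT on the plus strand 22 bases before the start of Slc25a13. Their GC content ran from 44.3% for Otc to 81.0% for Glud1, with 74.0% for Ass1 and 65.0% for Slc25a13.

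The comparison of genotypes set livers without Clever-1 beside wildtype livers of the same age. At 2 weeks none of the 10 members was called by edgeR, where 0.936% of 12716 tested genes were called higher and 1.74% lower in Stab1-/- livers. Of the members, 6 had an unadjusted p under 0.05, against 23.4% of all tested genes. DESeq2 called 3 of the 10 (Asl, Gls2 and Glud1, all lower) and 6.61% of the genes it tested, while limma on log2 RPKM called none of the members. The median log2 fold change of the members was -0.20 and that of all genes -0.013. Scaled on library totals these medians were -0.10 and 0.078, and scaled on 8 hepatocyte markers -0.02 and 0.155. The intervals set limits without showing equality. For Nags the 95% interval ran from -0.22 to 0.23, for Slc25a15 from -0.29 to 0.33 and for Cps1 from -0.48 to 0.18.

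Glud1 and Asl came nearest to the threshold. Glud1 was at 559, 615, 512 and 512 RPKM in Stab1-/- livers and 685, 775, 639 and 717 in wildtype, so that every Stab1-/- library lay below every wildtype one. Its log2 fold change was -0.45 ± 0.11 (95% interval -0.69 to -0.21, edgeR adjusted p = 0.0517). Asl was at 187, 174, 186 and 208 against 214, 246, 266 and 249 RPKM, again without overlap, with a log2 fold change of -0.46 ± 0.12 (-0.72 to -0.21, adjusted p = 0.0561). Gls2 was at 140, 116, 116 and 152 against 158, 189.5, 173.5 and 144.5 RPKM, with overlap, and a log2 fold change of -0.43 ± 0.13 (adjusted p = 0.0895). Ass1 stood at -0.39 ± 0.14 (adjusted p = 0.124) and Slc25a13 at -0.24 ± 0.10 (adjusted p = 0.187).

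Otc pointed the other way. It was at 562, 425, 440 and 466 RPKM in Stab1-/- livers and 410, 419, 331 and 243 in wildtype, with no overlap, and a log2 fold change of 0.35 ± 0.15 (95% interval 0.018 to 0.68, edgeR adjusted p = 0.191). Arg1 was at 1172, 841, 892.5 and 995 against 685.5, 946, 777 and 699.5 RPKM, with overlap, and a log2 fold change of 0.24 ± 0.14 (adjusted p = 0.315). In all, 3 of 10 members (Otc, Asl and Glud1) had RPKM ranges that did not overlap between genotypes, against 14.9% of tested genes.

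**Figure D4:**
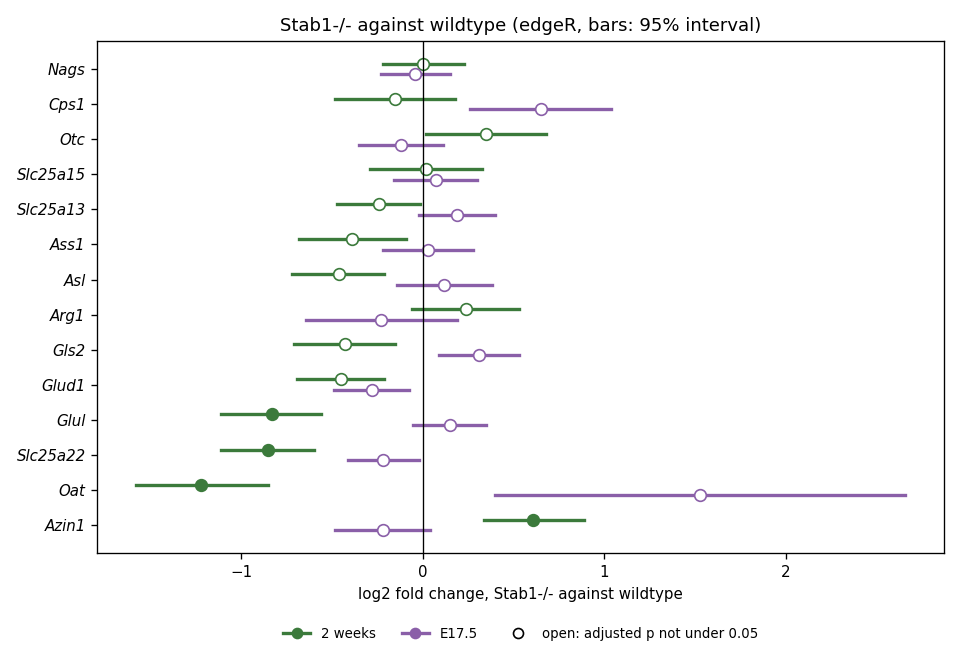
Log2 fold change of Stab1-/- against wildtype livers (horizontal axis) at 2 weeks and at E17.5 for the 10 members and 4 other genes of ammonia, ornithine and polyamine metabolism, from edgeR, with bars of the 95% interval and filled points where the adjusted p was under 0.05. All points of the 10 members are open, while Glul, Slc25a22, Oat and Azin1 are filled at 2 weeks, and the fetal interval of Oat, 0.40 to 2.66, is the widest shown. Oat was at 142.5 RPKM in Stab1-/- E17.5 replicate 1, the library with intestinal genes, against 24.4 and 27.6 in the other Stab1-/- fetal libraries.

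Glud1 lies 3.14 megabases from Stab1 on chromosome 14. Genes this near to a targeted locus are usually inherited with it, so an effect of Clever-1 and one of linked sequence cannot be told apart for Glud1. Within 5 megabases of Stab1, 5 of 66 other tested genes were called at 2 weeks, all lower (7.58%, against 2.67% of all tested genes), and 3 of 70 at E17.5 (4.29%, against 0.366%). These counts were made after the values of Glud1 had been seen.

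Several genes around the cycle were called at 2 weeks. Glul, which makes glutamine from the ammonia that passes the urea cycle, was at 180, 184, 152 and 181 RPKM in Stab1-/- livers and 303, 263, 261 and 339 in wildtype. No library overlapped, and the log2 fold change was -0.83 ± 0.13 (edgeR adjusted p = 0.00618). The ratio of Cps1 to Glul was 3.09 to 4.35 in Stab1-/- and 1.775 to 2.55 in wildtype livers, again without overlap. Slc25a22, a mitochondrial glutamate carrier, was at 32.2, 39.9, 40.4 and 38.3 against 73.3, 59.4, 56.6 and 67.4 RPKM, a log2 fold change of -0.85 ± 0.12 (adjusted p = 0.00405). Slc1a2, which takes up glutamate and marks the same central hepatocytes as Glul, was at 1.95 to 2.66 against 3.15 to 6.36 RPKM, a log2 fold change of -1.11 ± 0.20 (adjusted p = 0.0144). These were the 3 called of 17 tested ammonia and glutamine genes. The call of each remained when any 1 of the 8 libraries was left out and under every other setting tried.

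Of 14 tested genes of arginine, ornithine and proline metabolism 2 were lower and 1 higher. Oat, ornithine aminotransferase, which drains ornithine from the cycle, was at 35.75, 32.3, 41.2 and 33.0 RPKM in Stab1-/- livers against 52.2, 82.6, 84.6 and 89.3 in wildtype, a log2 fold change of -1.22 ± 0.17 (edgeR adjusted p = 0.00405). Aldh4a1, an enzyme of proline breakdown, was lower by a log2 fold change of -0.39 ± 0.091 (adjusted p = 0.046). Azin1, which protects ornithine decarboxylase from its inhibitor, was higher by 0.61 ± 0.13 (adjusted p = 0.0284). With offsets for GC content, the values were -0.28 (adjusted p = 0.102) for Aldh4a1 and 0.35 (adjusted p = 0.0818) for Azin1, so neither was called. When each of the 8 libraries was left out in turn, Aldh4a1 was called in 0 and Azin1 in 1 of the 8 fits. Oat was called in all 8, and missed the threshold with all 15 libraries in one fit. Of 21 tested amino acid breakdown enzymes Amt, of the glycine cleavage system, was lower, by a log2 fold change of -0.52 ± 0.11 (adjusted p = 0.0298), and edgeR called none higher. Amt was called in 2 of 8 fits that left out a library, and missed the threshold on library totals (adjusted p = 0.0606), on 8 hepatocyte markers (0.13) and in limma on log2(RPKM + 0.1) (0.0648). DESeq2 called 4 breakdown enzymes, Tdo2 higher and Amt, Hal and Uroc1 lower, and limma 0. None of the 12 regulators was called by edgeR, with 4 at an unadjusted p under 0.05, against 23.4% of all tested genes. DESeq2 called 1 regulator lower (Foxa2) and limma none. Hnf4a, a hepatocyte transcription factor, was at 115 to 150.1 RPKM in Stab1-/- and 99.7 to 157.5 in wildtype livers.

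Markers of the liver zones gave the following background. Of 10 markers of central hepatocytes 3 were called lower at 2 weeks by edgeR, DESeq2 and limma, namely Glul, Oat and Slc1a2. Cyp2e1 was called higher by DESeq2, and also by edgeR when libraries were scaled on the 8 hepatocyte markers. The summed level of the 10 was 4432 to 5900 RPKM in Stab1-/- and 3432 to 4440 in wildtype livers. Of 8 markers of portal hepatocytes that are not members, 2 were called lower by edgeR and none higher, Pck1 at -0.90 ± 0.19 and Aldh1b1 at -1.06 ± 0.16 (edgeR adjusted p = 0.0328 and 0.00579), and the 8 had a median of -0.55. Aldh1b1 was also called by DESeq2 and limma, whereas Pck1 was not called by limma on log2(RPKM + 0.1) (adjusted p = 0.0639), on the scale of the hepatocyte markers (0.0581), or with all 15 libraries in one fit (0.154), and was called in 2 of 8 fits that left out a library. None of the 8 hepatocyte markers was called by edgeR, with 3 at an unadjusted p under 0.05, against 23.4% of all tested genes. DESeq2 called 2 of these markers lower (Alb and Ttr) and limma none. The summed level of the 8 was 85328 to 107923 RPKM in Stab1-/- and 109597 to 134548 in wildtype livers. Of 8 endothelial markers Kdr was called lower by edgeR at -0.43 ± 0.10 (adjusted p = 0.0476). That call was lost on library totals (adjusted p = 0.0904), in median-of-ratios scaling (0.0515), on the scale of the hepatocyte markers (0.169) and in limma on log2(RPKM + 0.1) (0.1). DESeq2 called Kdr and Tek. No macrophage, granulocyte or erythroid marker was called by edgeR at 2 weeks. An unadjusted p under 0.05 was reached by 2 of 8, 4 of 7 and 1 of 6, against 23.4% of all tested genes. DESeq2 called 1 of these markers (the granulocyte gene Camp, higher) and limma none. Summed granulocyte markers were 190.2 to 422 RPKM in Stab1-/- and 31.85 to 148 in wildtype livers at 2 weeks. The part of these cell types in the values of the members was not tested.

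At E17.5 none of the 10 members was called by edgeR, where 0.194% of 13388 tested genes were higher and 0.172% lower. Cps1, Gls2 and Glud1 had an unadjusted p under 0.05, as did 12.9% of all tested genes. DESeq2 called Cps1 higher and Glud1 lower, with 1.61% of the genes it tested, and limma called no member. Cps1 was at 379, 326.5 and 285.5 RPKM in Stab1-/- fetuses and 165, 217, 291 and 207 in wildtype, so that the lowest Stab1-/- library lay inside the wildtype range. Its log2 fold change was 0.65 ± 0.18 (95% interval 0.26 to 1.04, edgeR adjusted p = 0.184), and 0.56 (adjusted p = 0.408) without Stab1-/- E17.5 replicate 1, the library with intestinal genes. Gls2 was at 42.8, 42.0 and 35.2 against 33.2, 31.8, 36.9 and 32.5 RPKM, a log2 fold change of 0.31 ± 0.098 (adjusted p = 0.245).

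Glud1 was the member that kept its direction at both stages without overlap between genotypes. At E17.5 it was at 374, 342 and 419 RPKM in Stab1-/- and 472.5, 478, 463 and 508 in wildtype livers, a log2 fold change of -0.28 ± 0.094 (95% interval -0.49 to -0.075, edgeR adjusted p = 0.259). Otc was at 63.1, 65.2 and 64.3 against 71.6, 85.9, 65.6 and 67.55 RPKM, and a narrow gap kept these ranges apart as well. The log2 fold change of Otc was -0.12 ± 0.10 (adjusted p = 0.647). These 2 of 10 members had ranges that did not overlap, against 12.2% of tested genes. The intervals of Ass1, Asl, Arg1, Nags, Slc25a15 and Slc25a13 all included 0, the widest being that of Arg1 from -0.64 to 0.19. No gene of the 4 pathway lists was called by edgeR at E17.5. An unadjusted p under 0.05 was reached by 4 of 17 ammonia and glutamine genes, 4 of 15 arginine, ornithine and proline genes, 6 of 21 breakdown enzymes and 2 of 12 regulators, against 12.9% of all tested genes. DESeq2 called 2 of the breakdown enzymes (Hal and Tdo2) and limma none.

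Summed levels of granulocyte and portal markers lay apart between the fetal groups, while those of the other cell-type lists overlapped. Summed granulocyte markers were 3708 to 4018 RPKM in Stab1-/- and 5243 to 8435 in wildtype fetuses, the opposite order to that at 2 weeks. None of the 8 was called by edgeR, with 4 at an unadjusted p under 0.05, while DESeq2 called S100a8 and S100a9 lower and limma none. Summed hepatocyte markers were 81343 to 95494 RPKM in Stab1-/- and 74929 to 84719 in wildtype fetuses, which overlapped. The 8 portal markers that are not members summed to 268.3 to 346.4 RPKM in Stab1-/- and 189.6 to 220.5 in wildtype fetuses, without overlap. EdgeR called none of them, with 6 at an unadjusted p under 0.05, against 12.9% of all tested genes, and 2 had a negative log2 fold change. DESeq2 called Hal and Hsd17b13 higher and limma none. Summed central, macrophage, endothelial and erythroid markers overlapped. The part of these cell types in the fetal values of the members was not tested.

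The difference between the genotype effects at 2 weeks and at E17.5 was tested in all 15 libraries. None of the members was called by edgeR, where the effect was called more positive at 2 weeks for 0.799% and more negative for 1.01% of 13885 genes. Of the members 5 had an unadjusted p under 0.05, against 23.15% of all tested genes. DESeq2 called 4 (Cps1, Asl, Slc25a13 and Gls2, all more negative at 2 weeks) and 8.46% of the genes it tested, and limma none of the members. Gls2 came nearest with a difference of -0.71 ± 0.18 on the log2 scale (edgeR adjusted p = 0.0513), followed by Asl at -0.55 ± 0.17 (adjusted p = 0.0845) and Cps1 at -0.76 ± 0.24 (adjusted p = 0.088). Glul was called, with -0.95 ± 0.16 (adjusted p = 0.018). At E17.5 Glul was at 107, 113 and 105 RPKM in Stab1-/- and 97.8, 95.55, 111 and 104 in wildtype fetuses, so that the groups overlapped there and lay apart at 2 weeks.

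The profile of 3 members across the 15 libraries was set beside that of all 13885 tested genes, by the mean absolute difference of log2(RPKM + 0.1) after each gene was centred on its own mean. Nearest to Gls2 was another member, Asl, at 0.117, followed by Aldh1l1, a folate enzyme, at 0.128 and Bhmt, which remethylates homocysteine, at 0.143. Nearest to Arg1 were Uqcrq at 0.137, Ghr, the growth hormone receptor, at 0.149 and Gstz1 at 0.152, and nearest to Cps1 were Mmp15 at 0.165, Rxra at 0.172 and Ttc38 at 0.175. These values describe likeness over the same libraries and carry no test.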

How the data were processed

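Total RNA of mouse liver was sequenced with a standard Illumina protocol in 15 libraries. The deposited table of the authors gives, per gene and library, unique read counts, RPKM values (reads scaled to the listed gene length and the library total) and the percent of the gene covered. RPKM recomputed from the counts equalled the deposited RPKM. The aligner, counter, genome build and strand setting are not given in the sources used here, so reads of overlapping antisense genes cannot be told apart. Library totals were about 9659000 to 10964000 reads, and the intervals given cover the spread between libraries.

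Groups came from the sample labels. Each comparison was fitted with edgeR 4.0.16 (R 4.3.3; quasi-likelihood test, TMM scaling, filterByExpr at its settings of 10 reads per library and 15 in total) on the libraries of its groups alone, or on all 15 libraries for the difference of genotype effects, and p-values were adjusted by Benjamini-Hochberg over all tested genes, with calls at 0.05. Alternatives were DESeq2 1.42.0, limma 3.58.1 on log2(RPKM + 0.1) or log2(RPKM + 1), no filter, other scalings, GC-content offsets, 1 fit of all libraries, a replicate block and leaving out each library. The procedure was tested on simulated data. The changes planted there were larger than any genotype effect of a member, so that test does not bear on small differences. Members and lists were chosen with earlier results of these data known. Named genes were all members, Stab1, Glul and Arg2, every pathway-list gene called between genotypes, the 3 called genes of each list with the largest stage change in wildtype livers, markers that a stated range turns on, and the 3 nearest profiles of Cps1, Arg1 and Gls2. Vil1 and Lct, Hnf4a and the genes near Stab1 were named after their values had been seen. A further gene named by this rule is not reported here. Promoter sequences are from RefSeq (GRCm38.p6).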

Additional observations from a re-analysis of the deposited data

Results flagged for a closer look

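In 3 of 36 groups of 4 libraries, 1 library lay farther from the others than Dixon's limit at 95% allows, where chance gives about 1 in 20, or 1.8. Cps1 was at 566.6 RPKM in Stab1-/- 2 weeks replicate 2, and the nearest library of its group was at 659.6. Slc25a13 was at 76.07 RPKM in Stab1-/- 2 weeks replicate 3, where the nearest was at 67.48. Glul was at 151.7 RPKM in the same replicate 3, with the nearest at 180.3.

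A difference of the genotype effect between 2 weeks and E17.5 was called for 7 genes of the pathway lists (edgeR interaction term, Benjamini-Hochberg adjusted p). They were 2 of 17 tested ammonia genes, 2 of 15 arginine genes, 3 of 21 breakdown enzymes and 0 of 12 regulators. Of all 13885 tested genes 1.81% were called. For Glul the effect at 2 weeks minus that at E17.5 was -0.95 on the log2 scale (adjusted p = 0.018). For Oat it was -2.69 (adjusted p = 0.0307), and -1.45 (adjusted p = 0.0184) without Stab1-/- E17.5 replicate 1, in which Oat was at 142.5 RPKM against 24.4 and 27.6 in the other Stab1-/- fetal libraries. The differences were -0.68 for Slc38a2, a glutamine transporter (adjusted p = 0.0453), -0.65 for Amt (adjusted p = 0.0453) and -1.38 for Hal, which begins histidine breakdown (adjusted p = 0.0291). They were 0.86 for Azin1 (adjusted p = 0.0347) and 2.75 for Tdo2 (adjusted p = 0.0291). Tdo2 held few reads before birth, 5 to 12 in each Stab1-/- and 17 to 55 in each wildtype fetal library. At 2 weeks Tdo2 was at 430 to 609 RPKM in Stab1-/- and 241 to 403 in wildtype livers, and edgeR did not call it. Of these 7, limma on log2(RPKM + 0.1) called 4 (Glul, Azin1, Hal and Tdo2), and DESeq2 called all 7 together with others of the lists. On library totals and on 8 hepatocyte markers the differences of Slc38a2 (adjusted p = 0.0582 and 0.185) and Amt (0.0691 and 0.191) missed the threshold, and with GC-content offsets those of Azin1 (0.0974) and Amt (0.0564). When each of the 15 libraries was left out in turn, Glul was called in all 15 fits, Tdo2 in 11, Oat in 10, Hal in 9, Azin1 in 6, Slc38a2 in 4 and Amt in 3.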

How the results depend on the processing

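Of 990 values of members under an alternative, 961 kept their side of the threshold, and kept their direction where they were called. Direction was not compared for values that were not called, and some of these changed sign. Under the other settings Cps1 between genotypes at 2 weeks ran from -0.14 to 0.031, and Ass1 at E17.5 from -0.099 to 0.033. At 2 weeks, 0 members were called between genotypes by edgeR, against 3 by DESeq2, 2 with all 15 libraries in one fit, 3 with a replicate block, 1 with GC-content offsets and the replicate block, and 0 to 1 when each library was left out (Asl, at -0.53 without wildtype 2 weeks replicate 1). At E17.5 DESeq2 called 2. For the difference of genotype effects DESeq2 called 4, median-of-ratios scaling 1, and leaving out a library gave 0 to 2. From E17.5 to 2 weeks, scaling on 8 hepatocyte markers turned Slc25a13 to -0.50 in wildtype and -0.63 in Stab1-/- livers and Glud1 to -0.13 and -0.005. The causes of these shifts were not tested. Each library was also expressed as its deviations from the mean of its group, gene by gene. Between genotypes, the deviations of same-numbered libraries correlated at 0.166, -0.012, 0.096 and 0.114 at 2 weeks and at -0.027, -0.126 and -0.178 at E17.5. Deviations of differently numbered libraries of the 2 genotypes at 2 weeks correlated at -0.205 to 0.225. With so few libraries these values cannot decide whether the replicate numbers pair the samples. Over all genes, higher and lower calls at 2 weeks went from 119 and 221 of 12716 to 420 and 441 by DESeq2. They were 316 and 387 of 13885 with all 15 libraries in one fit and 642 and 539 of 12716 with the replicate block. With GC-content offsets and the replicate block they were 386 and 361 of 12716. On library totals they were 137 and 118, and with hepatocyte markers 93 and 64. They were 41 and 75 without Stab1-/- 2 weeks replicate 1. Without wildtype 2 weeks replicate 1 they were 112 and 187, and without replicate 2 of that group 294 and 354. At E17.5 they went from 26 and 23 to 130 and 105 by DESeq2. For the difference they went from 111 and 140 to 439 and 619 by DESeq2 and 113 and 192 in median-of-ratios scaling. They were 5 and 25 without wildtype E17.5 replicate 2 and 373 and 311 without wildtype 2 weeks replicate 2. The balance of these differences turned to 209 and 83 on library totals, 149 and 26 on hepatocyte markers, 204 and 58 by limma on log2(RPKM + 0.1) and 330 and 79 by limma on log2(RPKM + 1). In wildtype livers the calls from E17.5 to 2 weeks split into 4667 higher and 4948 lower, against 3104 and 6834 on library totals and 1381 and 9993 on hepatocyte markers.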
